A study of Mus musculus with 4 samples.

Results

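The genes described here encode 10 cytokines that stromal cells supply to lymphocytes and myeloid cells: Il7, Tslp, Il15, Il6, Lif, Il33, Csf1, Kitl, Tnfsf11 and Tnfsf13b. The list names the genes, and their probe sets were found through the symbols of the array annotation. The annotation gave them 21 probe sets of the 45037 tested, and the brightest of a gene's probe sets, by the mean of the 4 arrays, stood for it. They thus make up 10 of 18193 genes measured, and 4 of them (Tslp, Il15, Il6 and Il33) have a single probe set.

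The cells came from the axillary lymph node on the tumour's side in female SCID/NOD mice of 6 to 8 weeks. Such mice lack mature T and B lymphocytes. The metastatic group carried tumours of 293-VEGF-D cells, a human embryonic kidney line made to overexpress the lymphatic growth factor VEGF-D. The non-metastatic group carried 293-Apex tumours without VEGF-D. Nodes were taken at tumour volumes of 1600 to 2500 mm3 after 3 to 4 weeks, and the nodes of 1 to 5 mice were pooled for a preparation. In the metastatic group, only nodes enlarged to the eye were used. After digestion the cells of both groups were cultured briefly in endothelial growth medium and selected with beads for podoplanin, which lymphatic endothelium and fibroblastic reticular cells both carry. According to the sorting label, the metastatic preparations were cleared of tumour cells and leukocytes ahead of culture and the non-metastatic ones were not, while the growth protocol describes depletion without separating the groups. VEGF-D, node enlargement and depletion thus go with the group and cannot be told apart from metastasis. The sample titles call the preparations of both groups LN EC, read here as lymph node endothelial cells. Each group had 2 biological replicates on 1 array each.

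In a lymph node, fibroblastic reticular cells secrete interleukin-7, which keeps naive T cells alive, and stromal cells also make BAFF (Tnfsf13b), which keeps B cells alive. M-CSF (Csf1) and stem cell factor (Kitl) act through receptor tyrosine kinases on macrophages and on progenitor and mast cells. Interleukin-6 and LIF signal through the shared receptor chain gp130, and interleukin-33 is an alarmin held in the nuclei of stromal cells.

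Values are log2 signals after quantile normalization, so a difference of 1 is a doubling or halving of the signal. Differences are metastatic minus non-metastatic. The array medians before normalization were 5.88 and 6.00 in the metastatic group, against 5.96 and 5.98 in the non-metastatic group. The defining endothelial genes Pecam1 and Cdh5 and the lymphatic transcription factor gene Prox1 had mean signals under the median of all probe sets (5.95). In all, 6 of 10 endothelial and 3 of 6 lymphatic markers did. The lymphatic markers Pdpn, Lyve1 and Flt4 lay at or above it. Lyve1 did so through the non-metastatic group, with a mean of 8.03 there and of 5.27 in the metastatic group. Of 10 fibroblast markers, 9 were at or above that median. No detection calls were used here, so a dim gene cannot be called absent. As a measure of RNA quality, the 3' minus 5' difference of the array's Gapdh control lay between -0.18 and -0.15 on all 4 arrays. For beta-actin it was 0.15 and 0.19 in the metastatic group, against 0.11 in both non-metastatic arrays.

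The question was whether these podoplanin-selected cells carry other levels of the cytokine transcripts in the metastatic group than in the non-metastatic group. All 10 genes had a negative difference, with a median of -0.47, where the median of all genes was -0.00034. The median was -0.28 without metastatic replicate 2 and also -0.28 with a gene's probe sets averaged, where 8 of 10 were negative. Of all genes, 50.1% had a negative difference. Il7, Tslp, Il15, Il6 and Lif were lower on both metastatic arrays than on both non-metastatic ones, and no member was higher on both. With array medians centred in place of quantile normalization, Il15 overlapped and 4 remained, against 15.2% of all genes. After quantile normalization, 17.3% of all genes were lower without overlap of the groups and 17.2% were higher. At an unadjusted p under 0.05 there were 4 members (Il7, Tslp, Lif and Il6), all lower, against 6.70% of all genes, 4.07% in the lower direction and 2.63% in the higher one. None of the 10 passed limma with Benjamini-Hochberg adjustment over the 45037 probe sets at 0.05, and 0 of all genes did (0% of genes and 0% of probe sets; 2731 probe sets, or 6.06%, had an unadjusted p under 0.05). The smallest adjusted p of a member was 0.396, for Tslp. With 2 arrays in each group, the smallest p that exact permutation (two-sided) allows is 0.333. In pooled cells, fewer cells of a type and less transcript in each cell cannot be told apart.

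**Figure D1:**
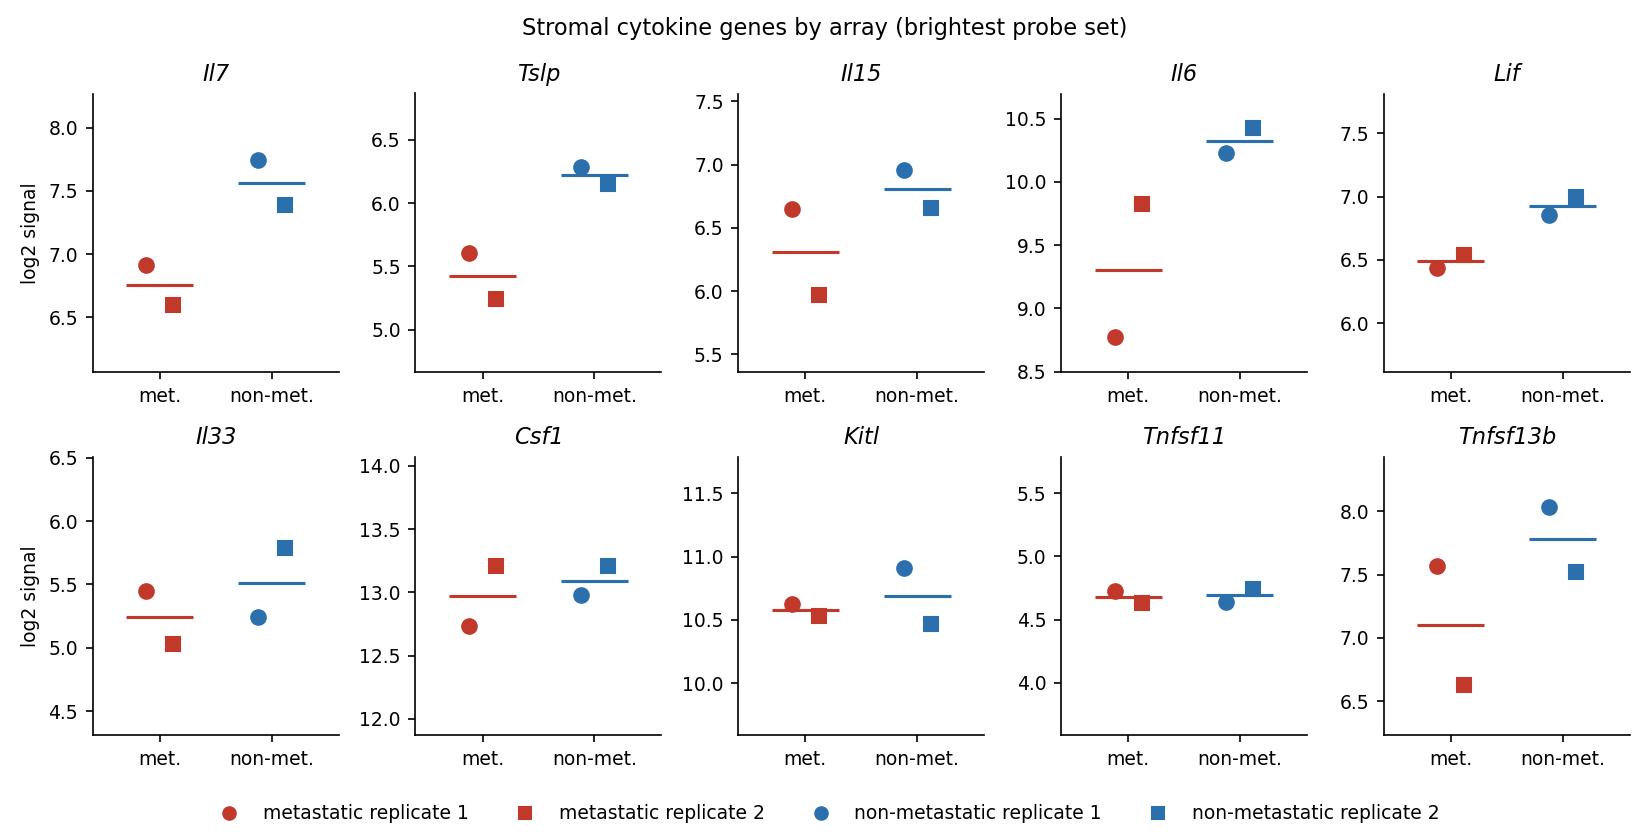
Log2 signal of the brightest probe set of each cytokine gene on each array, metastatic (red) left of non-metastatic (blue), with circles for replicate 1, squares for replicate 2 and a bar at the mean of 2 arrays; every panel spans 2.2 log2 units. Il7, Tslp, Il15, Il6 and Lif do not overlap between the groups, while the other 5 genes do.

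Il7 encodes the survival factor of naive T cells and of lymphoid progenitors. Its signal was 6.92 and 6.60 on the metastatic arrays, against 7.74 and 7.39 on the non-metastatic arrays. The groups did not overlap, and the gap between them (0.47) exceeded the distance between replicates of either group (0.32 and 0.35). The mean was 6.76 ± 0.23 in the metastatic group, against 7.56 ± 0.25 in the non-metastatic group (SD, n = 2 each), a difference of -0.81 (SE 0.18; 95% interval -1.24 to -0.37), or 1.75-fold lower signal (limma adjusted p = 0.455). The other Il7 probe set was dim, with 4.87 and 4.35 in the metastatic group, against 5.46 and 4.76 in the non-metastatic group. There metastatic replicate 1 lay above non-metastatic replicate 2, and the difference was -0.50 (SE 0.28).

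Tslp encodes thymic stromal lymphopoietin, a relative of interleukin-7 that acts on dendritic cells and shares the receptor chain Il7r. Its signal was 5.61 and 5.24 in the metastatic group, against 6.29 and 6.15 in the non-metastatic group. Both metastatic arrays lay below both others by at least 0.55, more than either distance between replicates (0.36 and 0.13). The difference was -0.79 (SE 0.16; 95% interval -1.18 to -0.41; limma adjusted p = 0.396), which is 1.74-fold lower. The mean of its only probe set, 5.82, was under the median of all probe sets. Il7 and Tslp were among the 216 genes with the smallest p.

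Il15 encodes a growth factor of natural killer cells and memory T cells that is handed over on its receptor chain Il15ra. It had 6.65 and 5.97 on the metastatic arrays and 6.95 and 6.66 on the non-metastatic ones. The groups touched, with metastatic replicate 1 only 0.011 below non-metastatic replicate 2, and the difference of -0.50 (SE 0.24) had an interval of -1.10 to 0.10 (limma adjusted p = 0.883). It was -0.84 without metastatic replicate 1 and -0.16 without metastatic replicate 2.

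Tnfsf13b encodes BAFF, the survival factor of B cells. Its bright probe set had 7.57 and 6.63 in the metastatic group, against 8.03 and 7.52 in the non-metastatic group. The groups overlapped, since metastatic replicate 1 lay above non-metastatic replicate 2. The difference was -0.68 (SE 0.33; interval -1.50 to 0.15), and metastatic replicate 2 set most of its size: it was -0.21 without that array and -1.15 without metastatic replicate 1. The other 2 probe sets were dim, with means of 4.56 and 3.98, and stood at -0.04 (SE 0.11) and -0.17 (SE 0.11).

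The gp130 cytokines among the 10 genes, Il6 and Lif, were lower without overlap. Il6 encodes interleukin-6, which drives the acute phase response and the maturation of B cells. Its signal was 8.77 and 9.83 in the metastatic group, against 10.23 and 10.42 in the non-metastatic group. The metastatic replicates lay 1.06 apart, further than the gap of 0.40 that separated the groups. The difference was -1.02 (SE 0.34; interval -1.86 to -0.19; limma adjusted p = 0.708), the largest among the 10 genes and the only one of at least 2-fold, a size and direction that 0.704% of all genes reached. It was -0.50 without metastatic replicate 1 and -1.55 without metastatic replicate 2.

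Lif encodes leukaemia inhibitory factor. Its brighter probe set had 6.43 and 6.54 in the metastatic group, against 6.85 and 6.99 in the non-metastatic group. The replicates were close together (0.10 and 0.14 apart), and the gap between the groups was 0.32. The difference was -0.44 (SE 0.12; interval -0.73 to -0.15; limma adjusted p = 0.603). The dimmer Lif probe set did not show it, with 4.98 and 5.07 in the metastatic group against 4.81 and 5.18 in the non-metastatic group, a difference of 0.03 (SE 0.16). The lower Lif signal thus rests on 1 of its 2 probe sets.

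The upstream sequences of Il6, Lif and Csf1 are given to set side by side the promoters of both gp130 cytokines and of the macrophage growth factor, whose signal differed little. Sequences are from a RefSeq promoter table of build GRCm38.p6, matched for 7 of the 10 genes. They hold the 250 bases before the annotated start, 5′ to 3′ in the gene's direction. Capitals mark matches, on either strand, to an NF-kappaB motif (GGGA, any base, then TTTCC), an AP-1 motif (TGANTCA) or a C/EBP motif (TTGNNCAAT).
Il6 (chr5:30012864-30013113, + strand): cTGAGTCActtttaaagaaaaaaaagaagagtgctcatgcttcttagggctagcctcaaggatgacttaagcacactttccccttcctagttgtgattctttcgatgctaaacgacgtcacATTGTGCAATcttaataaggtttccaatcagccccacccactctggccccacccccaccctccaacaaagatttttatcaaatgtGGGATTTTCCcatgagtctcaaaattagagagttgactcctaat
Lif (chr11:4257318-4257567, + strand): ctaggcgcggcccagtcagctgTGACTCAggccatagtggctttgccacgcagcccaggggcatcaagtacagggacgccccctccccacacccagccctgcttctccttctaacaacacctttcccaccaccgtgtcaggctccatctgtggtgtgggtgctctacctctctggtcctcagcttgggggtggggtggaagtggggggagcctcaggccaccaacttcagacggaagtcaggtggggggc
Csf1 (chr3:107760470-107760719, - strand): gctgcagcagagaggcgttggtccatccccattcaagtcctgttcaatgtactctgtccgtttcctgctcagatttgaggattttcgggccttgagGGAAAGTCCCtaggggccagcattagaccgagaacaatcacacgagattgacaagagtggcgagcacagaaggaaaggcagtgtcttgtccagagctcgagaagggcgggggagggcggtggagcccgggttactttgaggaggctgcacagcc
The Il6 window held 1 NF-kappaB match 44 to 35 bases before the start, 1 AP-1 match and 2 C/EBP matches that overlap each other. The Csf1 window held 1 NF-kappaB match, 154 to 145 bases before the start on the opposite strand, and neither of the other motifs. The Lif window held 1 AP-1 match. Of 32851 promoter windows of this length, 0.356% held the NF-kappaB motif, 6.75% the AP-1 motif and 2.27% the C/EBP motif. Of the windows not printed, those of Tnfsf13b held 1 AP-1 match, and those of Il33, Kitl and Tnfsf11 held none of the motifs. Any part of these motifs in the differences was not tested. A match describes the letters and not the binding of a factor.

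Il33 encodes an alarmin that acts through the receptor ST2 on innate lymphoid cells and mast cells. It was dim, with 5.45 and 5.03 in the metastatic group, against 5.24 and 5.79 in the non-metastatic group. The groups overlapped, and each was wider than the difference of -0.27 (SE 0.23; interval -0.84 to 0.29). Without non-metastatic replicate 2, the highest of the 4 arrays, the difference was -0.0013.

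The myeloid and progenitor factors Csf1 and Kitl had high signal on every array. Csf1, the growth factor of macrophages, had 12.74 and 13.21 in the metastatic group, against 12.98 and 13.21 in the non-metastatic group. The difference was -0.12 (SE 0.19; interval -0.59 to 0.34). The other 3 probe sets stood at -0.06, 0.12 and 0.13 with SEs of 0.21 to 0.22, so the 4 probe sets fell on both sides of 0. All 4 placed metastatic replicate 1 below metastatic replicate 2, by 0.47 to 0.54. This distance between replicates was larger than any of the 4 differences between the groups.

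Kitl encodes stem cell factor. It had 10.63 and 10.53 in the metastatic group, against 10.91 and 10.47 in the non-metastatic group. The non-metastatic arrays lay on either side of both metastatic ones, and the difference was -0.11 (SE 0.17; interval -0.54 to 0.31). Its other probe sets had positive differences of 0.06 (SE 0.13), 0.26 (SE 0.25) and 0.18 (SE 0.21). The intervals of Csf1 and Kitl span 0, which does not show that their levels were equal.

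Tnfsf11 encodes RANKL, which stromal and other cells present to osteoclast precursors, dendritic cells and lymphatic endothelium. It was dim, with 4.73 and 4.63 in the metastatic group, against 4.64 and 4.74 in the non-metastatic group. The groups overlapped and the difference was -0.015 (SE 0.11; interval -0.30 to 0.27). The other probe set was dimmer, at 3.77 and 3.78 in the metastatic group against 3.79 and 3.79 in the non-metastatic group, a difference of -0.015 (SE 0.11). Both are near the bottom of the scale, where the lowest deposited value was 3.10.

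**Figure D2:**
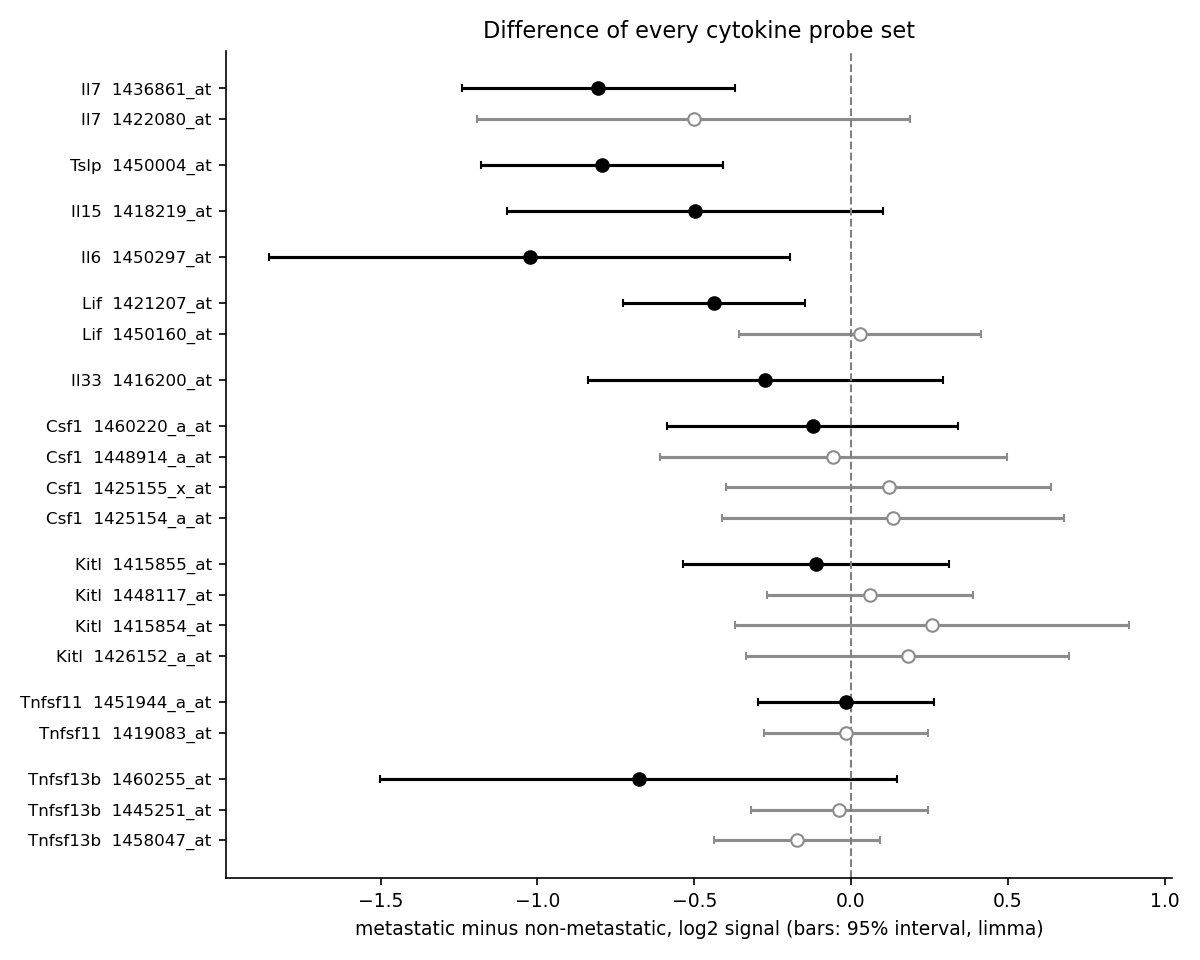
Difference in log2 signal, metastatic minus non-metastatic, of all 21 cytokine probe sets with 95% intervals from limma; filled points are the brightest probe set of each gene and open points the others. For the brightest probe set, the intervals of Il7, Tslp, Il6 and Lif lie below 0. Those of Il15, Il33, Csf1, Kitl, Tnfsf11 and Tnfsf13b span it.

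Over the 21 probe sets, 15 differences were negative and 6 positive, and 7 probe sets were lower without overlap, among them dim ones of Tnfsf11 and Tnfsf13b, against 16.0% of all probe sets. The 6 positive ones belonged to Csf1, Kitl and Lif. Choosing the brightest probe set therefore gave Csf1 and Kitl a negative sign that the mean over their probe sets did not have (0.019 and 0.10). Set among all genes, 6 members (Il6, Il7, Tslp, Tnfsf13b, Il15 and Lif) lay at or below the 5th percentile of differences, -0.36, which holds 5.00% of genes. The remaining 4 lay between that value and 0.

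**Figure D3:**
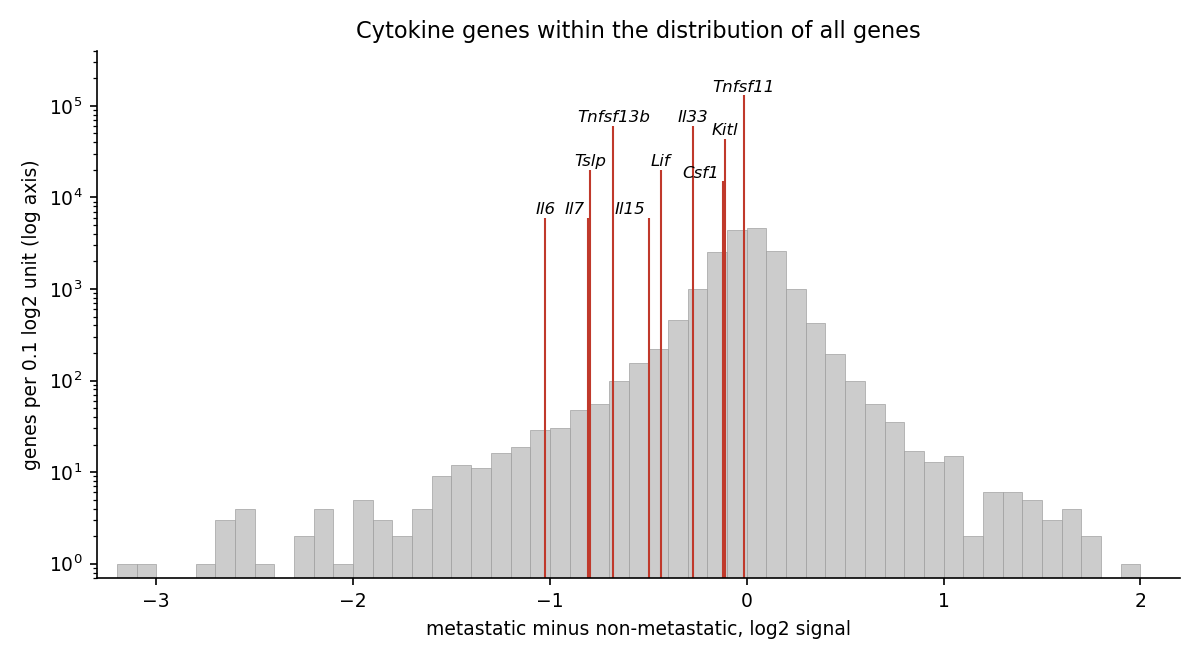
Distribution of the difference in log2 signal, metastatic minus non-metastatic, over 18193 genes in bins of 0.1 (grey bars, log axis), with a red line at each cytokine gene; line heights only separate the labels. All 10 lines stand below 0, from -1.02 for Il6 to -0.015 for Tnfsf11.

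Profiles over the 4 arrays were compared after subtracting each gene's own mean, for the 3 members with the smallest p. The closest to Tslp were Tec, a cytoplasmic tyrosine kinase gene, at a root mean square distance of 0.0461, H2ac19, a histone gene, and the phosphodiesterase gene Pde5a. The closest to Il7 were the potassium channel subunit gene Kcne4 at 0.0450, H2ac19 and the cartilage matrix gene Comp. H2ac19 was thus near both, with 9.11 and 8.66 in the metastatic group against 9.83 and 9.58 in the non-metastatic group. The closest to Lif were Prkar1b (0.0102), Il17d (0.0195) and Rasal2 (0.0197). These are descriptions over 4 arrays, and the probe sets of H2ac19, Pde5a, Prkar1b and Il17d are of a kind that can bind several transcripts.

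The receptors of the 10 cytokines lay on both sides of 0. Of 17 listed chains and decoys 15 were measured, 9 with a negative and 6 with a positive difference, a median of -0.07, and 0 passed after adjustment. Csf1r, the receptor of M-CSF, had the smallest p of the list, with 9.61 and 9.26 in the metastatic group against 9.88 and 10.07 in the non-metastatic group, a difference of -0.54 (SE 0.16; limma adjusted p = 0.636). All 3 Csf1r probe sets were lower, the others by -0.30 and -0.39. Kit, the receptor of stem cell factor, was dim and stood at -0.26 (SE 0.13), or -0.16 without non-metastatic replicate 1, and its other probe set at 0.016. Crlf2, the receptor chain specific to TSLP, had -0.28 (SE 0.14) and was lower without overlap, but stood at -0.14 without non-metastatic replicate 1. Il15ra, which presents interleukin-15, had the opposite sign to its ligand, with 7.50 and 7.11 in the metastatic group against 7.09 and 6.81 in the non-metastatic group, a difference of 0.35 (SE 0.18). It was 0.16 without metastatic replicate 1, and its other probe set stood at -0.11 (SE 0.27). None of these differences passed.

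Of 14 related cytokines 11 were measured, 6 with a negative and 5 with a positive difference, and the median was -0.01. Il18, which encodes a cytokine of the interleukin-1 family that is activated by inflammasomes, had the largest difference. It had 8.70 and 8.11 in the metastatic group against 7.68 and 6.96 in the non-metastatic group, a difference of 1.08 (SE 0.29; limma adjusted p = 0.616). It was 0.72 without non-metastatic replicate 2. The groups did not overlap. The sign of the Il18 difference was opposite to that of the brightest probe sets of the 10 stromal cytokines, of which 5 overlapped between the groups. Il11, another gp130 cytokine, had 7.09 and 6.93 in the metastatic group against 7.25 and 7.31 in the non-metastatic group, a difference of -0.27 (SE 0.12). The other measured gp130 cytokines overlapped between the groups, with Osm at -0.07, Ctf1 at -0.02 and Clcf1 at 0.003. Il34, the second ligand of the M-CSF receptor, stood at -0.27 (SE 0.20), and at -0.045 without non-metastatic replicate 1. The chemokine gene Cxcl12 had 0.47 (SE 0.32), a value set by non-metastatic replicate 1, without which it was -0.038. Its other probe sets stood at 0.24 and -0.07.

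Several of the 10 cytokines are made as membrane proteins and cut loose by proteases. Of the 5 listed proteases, 4 had a positive difference and 1 a negative one, with a median of 0.07. Mmp14, a membrane-bound metalloproteinase, had 12.05 and 11.62 in the metastatic group against 11.08 and 11.37 in the non-metastatic group, a difference of 0.61 (SE 0.18; limma adjusted p = 0.655). It was 0.40 without metastatic replicate 1. Of its other probe sets, 1 stood at 0.85 and 1 at 0.09. Adam17, which releases many membrane-bound cytokines and receptors, had 0.27 (SE 0.12), and its other probe sets 0.31 and 0.67. Adam10 stood at -0.10 (SE 0.12), with its other probe sets at 0.16, 0.47 and -0.06. Mmp9 stood at 0.07 (SE 0.11), with its other probe set at 0.09. None passed.

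Among 16 measured genes of JAK kinases, STAT factors and the genes they commonly induce, 9 differences were negative and 7 positive, with a median of -0.02. Bcl3, an atypical member of the IkappaB family that STAT3 can induce, had 8.21 and 8.17 in the metastatic group against 7.78 and 7.83 in the non-metastatic group, a difference of 0.39 (SE 0.11; limma adjusted p = 0.614). Jak1, the kinase bound to gp130 and to the interleukin-7 receptor, had 0.38 (SE 0.14), or 0.23 without non-metastatic replicate 2, with its other probe sets at 0.23 and 0.92. Cebpb, a factor that interleukin-6 induces, had 0.24 (SE 0.11). Its other probe set stood at 0.55 (SE 0.11). Socs2, a feedback inhibitor, had -0.25 (SE 0.11), and its other probe sets ran from -0.45 to 0.03. No gene of the list passed, and its members went in both directions.

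Of 8 measured genes of the lymphotoxin receptor and NF-kappaB, the inputs that switch on many stromal cytokine genes, 6 were negative and 2 positive, with a median of -0.11. Tnfaip3 encodes A20, an inhibitor that NF-kappaB itself induces. It had 7.25 and 7.31 in the metastatic group against 7.79 and 7.85 in the non-metastatic group, a difference of -0.54 (SE 0.11; limma adjusted p = 0.400). Its groups lay far apart relative to their replicates, and its other probe set stood at -0.15 (SE 0.12). Nfkbia, which encodes the NF-kappaB-induced inhibitor IkappaB-alpha, had -0.39 (SE 0.18), which was -0.17 without metastatic replicate 2 and -0.61 without metastatic replicate 1, and its other 4 probe sets ran from -0.54 to -0.32. Relb, a subunit of the lymphotoxin-driven branch, had -0.24 (SE 0.11), and Tnfrsf1a, a receptor of TNF, 0.16 (SE 0.11). None passed.

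**Figure D4:**
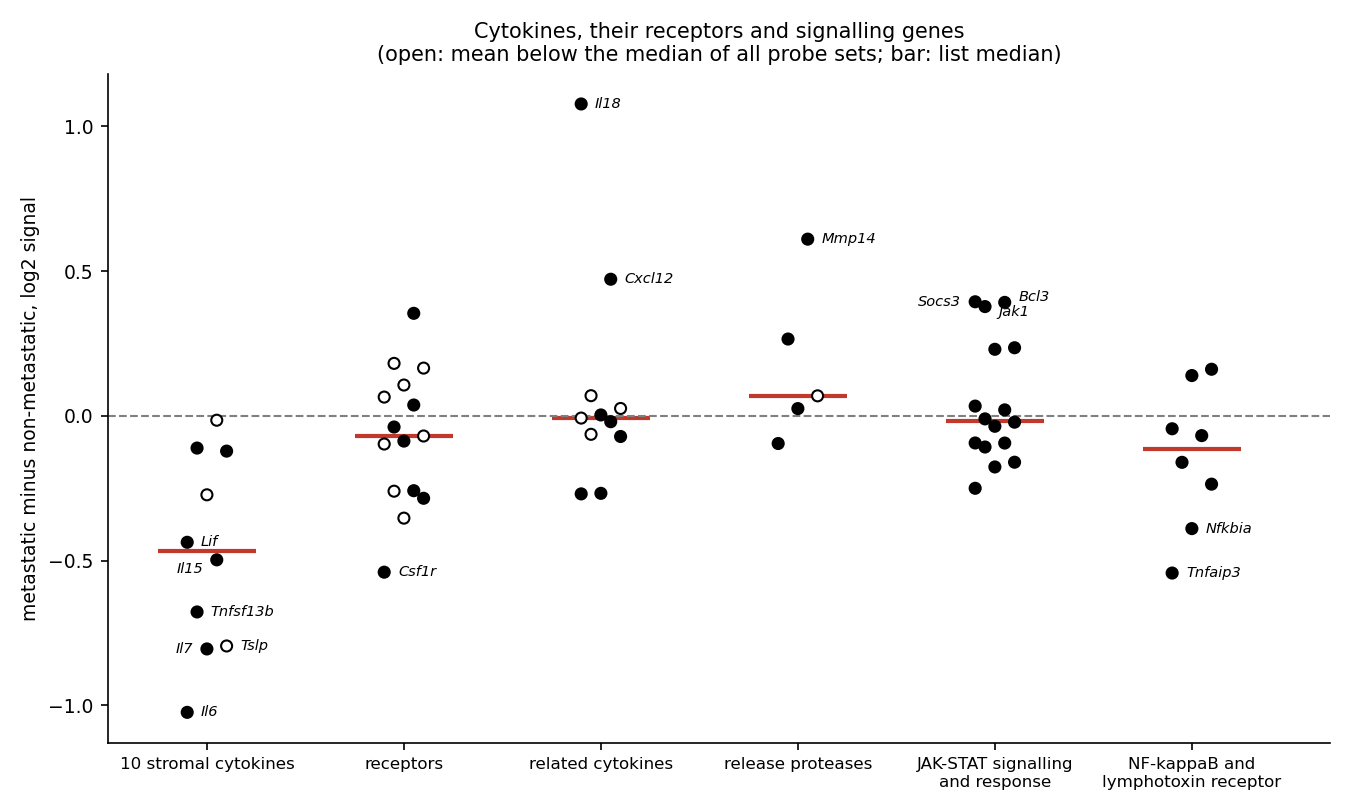
Difference in log2 signal, metastatic minus non-metastatic, of each measured gene in the cytokine list and in 5 lists around it; a red bar marks the median, open points are genes with a mean below the median of all probe sets, and genes beyond 0.36 in size are named. The cytokine median stands at -0.47 and the other medians between -0.11 and 0.07.

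Summed signals of marker genes were set beside these differences; counts below are of markers with a negative difference. Contractile markers had a summed linear signal of 17615 and 28620 in the metastatic group, against 35829 and 33845 in the non-metastatic group. Of these markers, 7 of 8 were negative, with a median of -0.73. Without Acta2 and Tagln, the sum was 510 and 671 in the metastatic group against 1061 and 1334 in the non-metastatic group. Metastatic replicate 1 had the lowest contractile sum and the lowest Il6, Lif and Csf1 signals. Il7, Tslp, Il15, Tnfsf13b, Il33 and Tnfsf11 were lowest on metastatic replicate 2, and Kitl on non-metastatic replicate 2. Endothelial markers summed to 1545 and 1775 in the metastatic group against 2564 and 2298 in the non-metastatic group (7 of 10 negative). Eng and Emcn carried this, since the other 8 summed to 547 and 495 in the metastatic group against 608 and 498 in the non-metastatic group. Fibroblast markers summed to 62302 and 64242 in the metastatic group against 62425 and 68010 in the non-metastatic group (5 of 10 negative), mostly through the collagen genes Col1a1, Col1a2 and Col3a1. Without these 3, the sum was 18610 and 18391 in the metastatic group against 17389 and 19038 in the non-metastatic group. Vcam1, an adhesion molecule gene of reticular cells, had the most negative difference of that list, -0.45 (SE 0.21), and was lower without overlap. So was Col3a1, at -0.21. The largest positive differences of the list were 0.27 for Fap and 0.25 for Pdgfra, whose groups overlapped. Lymphatic markers summed to 2146 and 2002 in the metastatic group against 1799 and 1674 in the non-metastatic group, mostly through Pdpn, which encodes podoplanin, and 4 of 6 had a negative difference. Without Pdpn the order was the opposite, with 248 and 177 in the metastatic group against 498 and 370 in the non-metastatic group. The lymphatic receptor gene Lyve1 carried this, with 6.32 and 4.23 in the metastatic group against 8.26 and 7.80 in the non-metastatic group. Prox1, Flt4 and Mmrn1 overlapped between the groups, at -0.14, -0.13 and -0.08, and Reln stood at 0.24. The endothelial sialomucin gene Emcn had 6.50 and 5.66 in the metastatic group against 8.77 and 8.45 in the non-metastatic group.

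Myeloid markers summed to 785 and 691 in the metastatic group against 1121 and 806 in the non-metastatic group (7 of 10 negative). The macrophage gene Adgre1 lay under the median of all probe sets. Lyz2 had 6.06 and 6.16 in the metastatic group against 8.29 and 6.86 in the non-metastatic group. This was the largest difference of the list, and the sum was not taken without Lyz2. Of the 10 markers, 3 were lower without overlap, against 17.3% of all genes. Another 2 were higher without overlap, against 17.2%: the dim Itgam, at 0.28, and Cd74, at 0.16. Myeloid cells also make the products of Csf1r and Tnfsf13b. Leukocyte markers of any kind summed to 726 and 657 in the metastatic group against 874 and 764 in the non-metastatic group (5 of 6 negative). Cd53 carried this, since the other 5 summed to 234 and 253 in the metastatic group against 246 and 248 in the non-metastatic group, and their defining member Ptprc was dim on all arrays, at 4.28 and 4.01 in the metastatic group against 4.13 and 4.08 in the non-metastatic group. T and B cell markers summed to 274 and 299 in the metastatic group against 293 and 320 in the non-metastatic group (3 of 6 negative), with 5 of 6 under the median of all probe sets. Epithelial and mesothelial markers, whose cells can make TSLP and interleukin-33, summed to 940 and 1488 in the metastatic group against 1146 and 1510 in the non-metastatic group (8 of 9 negative). The part of any of these cells in the cytokine differences was not tested.

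**Figure D5:**
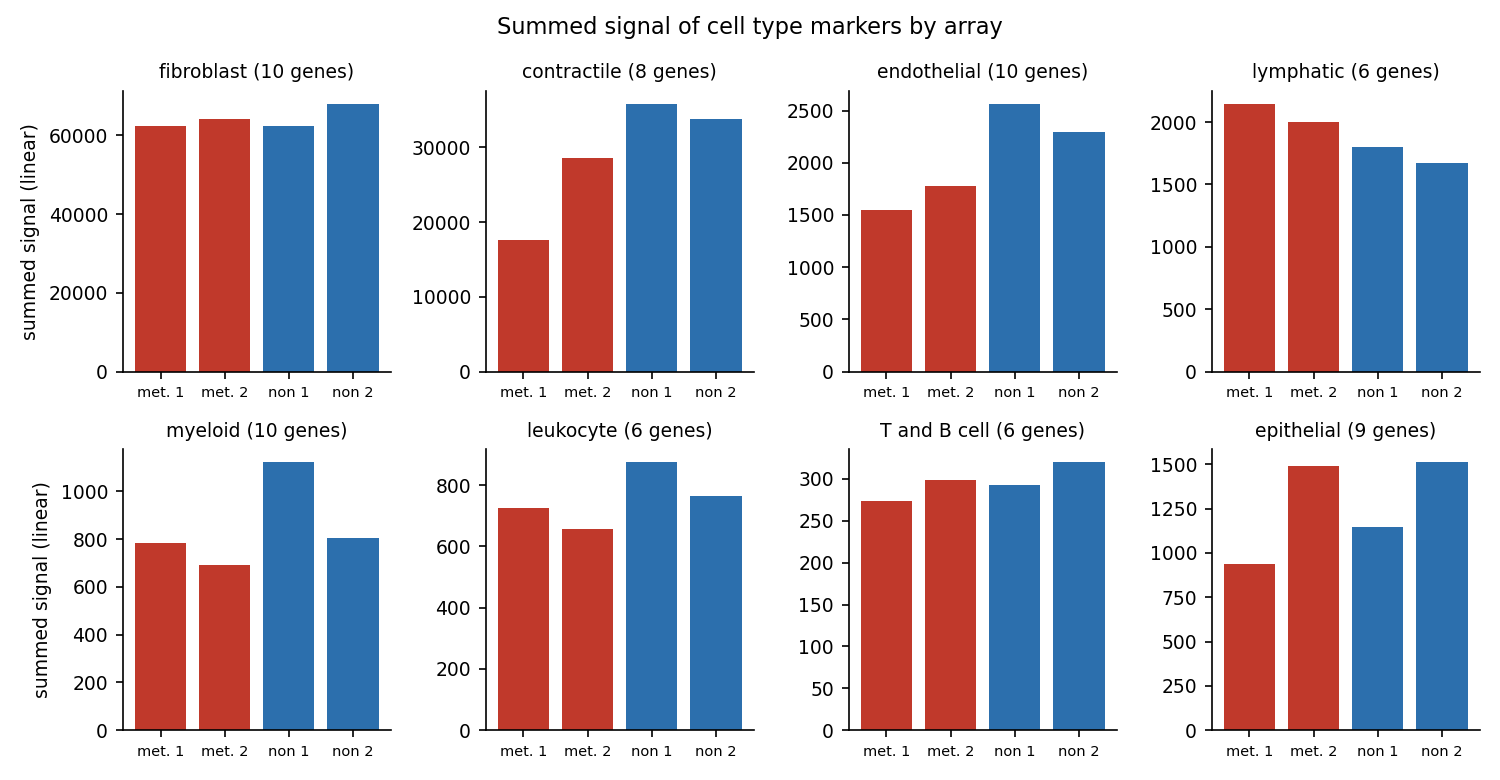
Summed linear signal of the markers of 8 cell types on each array, metastatic (red) left of non-metastatic (blue); each panel has its own axis from 0. Contractile, endothelial, myeloid and leukocyte sums are lower on both metastatic arrays. The endothelial sum is lower through Eng and Emcn and the leukocyte one through Cd53. The myeloid one is lower in part through Lyz2 and was not taken without that gene. Fibroblast sums lie within 62302 to 68010.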

How the data were processed

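Biotin-labelled cRNA of 4 preparations was hybridized to Affymetrix arrays, per the labels' protocols. The values deposited by the authors are log2 signals per probe set (3.10 to 14.87, read from the values); the summarising software is not given in the sources used here. Of 45101 probe sets, 64 controls were left out. The array medians differed by 0.116, so the rest were quantile normalized with limma. Probe sets with 1 gene symbol (34945; 932 had several and 9160 none) were named through the platform annotation, with symbols updated through Entrez numbers. The groups were taken from the sample titles, whose replicate numbers are not stated to pair preparations.

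limma (lmFit and eBayes, 2 residual and 3.71 prior degrees of freedom) was fitted over 45037 probe sets without a filter, and p was adjusted by Benjamini-Hochberg and called under 0.05, two-sided. The replicates are biological, but the pooling of mice means that p measures the spread between pools. The scripts were tested on simulated data. Members and lists were chosen with earlier results of these data known, so no list was tested as a set. Named genes were the members, up to 4 genes with the smallest p of each list around them, and the 3 genes with the nearest profile to each of 3 members; marker genes, Osm, Ctf1 and Clcf1 were named, and marker sums without their leading genes added, after their values were seen. The lists held 140 distinct genes, of which 130 were measured; the others are not reported here. R 4.3.3, limma 3.58.1, Python 3.11.15 and matplotlib 3.10.9 were used.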

Additional observations from a re-analysis of the deposited data

How the results depend on the processing

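Of the 10 cytokine genes, 0 passed after adjustment with the deposited values, centred medians, averaged probe sets per gene, an intensity trend with robust moderation, the replicate block, or each array left out, and 0 of 7 with brighter probe sets alone, which leaves out Tslp, Il33 and Tnfsf11. All 10 differences stayed negative with the deposited values and centred medians; the trend and the block cannot move a difference here. With averaged probe sets Csf1 stood at 0.019 and Kitl at 0.10, and Adam10, added after seeing the data like the other genes of the surrounding lists, at 0.12. With 1 array left out Csf1 ran from -0.36 to 0.11 (above 0 without metastatic replicate 1), Kitl from -0.33 to 0.11 (above 0 without non-metastatic replicate 1), Tnfsf11 from -0.067 to 0.037 (above 0 without replicate 2 of either group) and Cxcl12 from -0.038 (without non-metastatic replicate 1) to 0.98. The members without overlap numbered 6 to 8 (5 with all arrays) with 1 array left out, 8 without metastatic replicate 1, while 28.6% to 40.8% of all genes were then lower without overlap. It was 4 with centred medians, against 15.2% of all genes. The members at an unadjusted p under 0.05 in limma numbered 4 in the main fit (6.70% of all genes). There were 3 with averaged probe sets (6.63%) and 6 with the block (9.56%). Of the probe sets tested, 5 passed with the trend and robust moderation, 145 with the replicate block, and 0 to 67 with 1 array left out, 67 without metastatic replicate 1. The labels do not say that equal replicate numbers pair preparations; same-numbered arrays deviated together with a correlation of 0.25 over probe sets. With the block, adjusted p was 0.0708 for Il7, 0.0827 for Tslp, 0.144 for Il6 and 0.302 for Lif, and Il18 passed (1.08, limma adjusted p = 0.0321). With 1 array missing, 1 residual degree of freedom is left, and the fit takes the lone array to vary like the other group. Dim signal limits what can be said of Tslp, Il33 and Tnfsf11.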
